A study of Mus musculus with 29 samples.

Results

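Chemokines, the small secreted proteins that guide migrating cells, and the receptors that read or remove them were followed in cultured stromal vascular fraction (SVF), which holds the cells other than adipocytes that digestion releases from fat. The members were protein-coding genes chosen by symbol, namely Ccl, Cxcl, Ccr or Cxcr followed by a number alone, Cx3cl1, Xcl1, Cx3cr1 and the atypical receptors Ackr1 to Ackr4 and Ccrl2. Symbols with a letter after the number, such as Ccl21a and Ccl27a, and the receptor Xcr1 lie outside this rule. The rule found 55 genes among the 56953 rows of the count table, of which 33 encode ligands, 17 encode signaling receptors and 5 encode atypical receptors. Cells came from inguinal white adipose tissue (iWAT, a subcutaneous depot) and perigonadal white adipose tissue (pgWAT, a visceral depot) of C57BL6/J mice. By their labels, 19 of the 29 Smart-seq3 libraries were from iWAT (10 male, 9 female) and 10 from pgWAT (4 male, 6 female). All of them were grown in PM1 medium with 1 nM basic FGF for 4 days, and the labels give no transgene, no other treatment and no age. By the study's account the wells are technical replicates of a few independent experiments, with fewer experiments for pgWAT than for iWAT. The labels do not say which well came from which experiment. All p-values therefore describe the spread between wells that are technical replicates, with few independent experiments behind each depot.

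Chemokine ligands bind to G protein-coupled receptors on leukocytes and other cells, and the gradient they form is held in place by glycosaminoglycans on cell surfaces and matrix. They are classed by the spacing of their leading cysteines. Atypical receptors bind ligands without the usual G protein signal and take them up, which lowers the ligand around the cell. In fat, chemokines such as Ccl2 are known for drawing monocytes, and stromal cells are a known source of them.

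Total counts per library ranged from 315316 to 1102234 with a median of 610424. At this depth a count of 0 allows a level of up to 2.58 to 9.76 counts per 1e6 counts (CPM) in single libraries, taken as 3 counts, and intervals and limits cover counting error only. In pgWAT, 5 of the 10 libraries did not match their sex label by Xist and Y-linked transcripts. These were pgWAT male 2 and 4 and pgWAT female 1, 2 and 3. pgWAT male 2 and 4 had 24 and 60 Xist counts, with 1 and 0 Y-linked counts. pgWAT female 2 and 3 had 0 Xist counts, with 23 and 26 Y-linked counts, and pgWAT female 1 had both (7 and 10). Of the matching libraries, pgWAT male 1 and 3 had 34 and 32 Y-linked counts, and pgWAT female 4, 5 and 6 had 57, 58 and 22 Xist counts. Library names below give the label only, and the contrasts that use the 5 mismatched libraries are also given without them in a later paragraph. Transcripts of all 6 fibroblast markers were found in every group. By library they summed to 6387 to 12199 CPM in iWAT and to 11686.5 to 22688 CPM in pgWAT. Those of the 5 endothelial markers summed to 26.2 to 104 CPM. Macrophage markers summed to 661 to 2555 CPM in iWAT and to 766 to 8286 CPM in pgWAT, with all 10 of 10 detected in each depot. Lymphocyte markers summed to at most 15.8 CPM. Of the neutrophil and mast cell markers, S100a9 had 0 counts over all libraries. Kit had 99 counts, S100a8 and Cpa3 had 23 each and Csf3r had 2. Mesothelial markers summed to 0 to 8.44 CPM in iWAT and to 55.5 to 183 CPM in pgWAT, and epithelial markers reached 1453 CPM in iWAT female 9. In bulk cultures fewer cells of a type and less RNA per cell cannot be told apart.

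The leading ligands are shown by the stretch of coding sequence around their first cysteines, because this spacing defines the class to which each belongs. Capitals mark the cysteine codons, the sequences run 5′ to 3′, and they come from Gencode transcripts with coordinates on GRCm38. All of the 8 stretches lie in coding exons. The CC class is shown by the 5 ligands Ccl2, Ccl7, Ccl11, Ccl6 and Ccl9, the CXC class by Cxcl12 and Cxcl16, and the CX3C class by Cx3cl1.
Ccl2 (chr11:82036488-82036529, plus strand, exon 2 of 3): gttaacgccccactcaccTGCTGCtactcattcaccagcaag
Ccl7 (chr11:82046520-82046561, plus strand, exon 2 of 3): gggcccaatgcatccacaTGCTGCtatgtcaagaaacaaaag
Ccl11 (chr11:82058042-82061719, plus strand, exons 1 and 2 of 3): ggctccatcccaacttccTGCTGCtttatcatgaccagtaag
Ccl6 (chr11:83589368-83589409, minus strand, exon 3 of 4): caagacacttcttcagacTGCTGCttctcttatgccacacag
Ccl9 (chr11:83575908-83575949, minus strand, exon 3 of 4): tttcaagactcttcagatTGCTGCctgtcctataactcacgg
Cxcl12 (chr6:117171490-117171534, plus strand, exon 2 of 4): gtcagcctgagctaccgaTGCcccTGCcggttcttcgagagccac
Cxcl16 (chr11:70459109-70459153, minus strand, exon 2 of 5): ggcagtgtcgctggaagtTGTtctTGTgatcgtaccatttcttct
Cx3cl1 (chr8:94778033-94778083, plus strand, exon 2 of 3): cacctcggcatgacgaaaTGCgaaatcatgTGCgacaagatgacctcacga
In the CC ligands the cysteine codons were adjacent, in Cxcl12 and Cxcl16 they were separated by 1 codon, and in Cx3cl1 by 3 codons. Cxcl16 and Cx3cl1 had the longest coding sequences of the tested ligands (246 and 395 codons), and both are known as membrane-anchored chemokines whose head can be shed. Over their coding sequences the closest pairs of tested members were Ccl7 and Ccl11 (65.7% identical bases in a global alignment), Ccl8 and Ccl12 (64.8%) and Ccl6 and Ccl9 (63.7%). No 31-base word of the transcripts of Ccl2, Ccl7, Ccl8 or Ccl12 was found in a transcript of another gene. The largest shared proportion was 3.75% for Ccl9, with Smarcb1 as the main partner, and the only tested member whose main partner was another chemokine gene was Ccr1 (17 words shared with Ccr3).

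At least 1 count in any library was found for 52 of the 55 members, and at least 3 counts in a single library for 34. By class, 31 of 33 ligands, 16 of 17 signaling receptors and 5 of 5 atypical receptors were detected in at least 1 library. Ccl20, Ccl26 and Ccr4 had 0 counts in all 29 libraries. A single library showed 20 to 32 members with at least 1 count, of which 16 to 24 were ligands, 1 to 7 signaling receptors and 1 to 5 atypical receptors. Ligands therefore made up most of the detected members in every library. In counts the gap was wider, as ligands took 0.446 ± 0.0598% of all counts in iWAT (SD, n = 19) and 0.335 ± 0.133% in pgWAT (SD, n = 10), while signaling receptors took 0.00176 ± 0.000671% and 0.00291 ± 0.00194%.

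In iWAT, Ccl2, the chief attractant of monocytes, held 46.8% of all ligand counts, followed by Ccl7 with 15.6%, Ccl11 with 15.5% and Ccl6 with 8.69%. In pgWAT the pooled order was Ccl6 at 26%, Ccl2 at 21.7%, Cxcl12 at 16.6% and Ccl7 at 10.6%, over unlike libraries. Ccl6 was the highest ligand in 5 of the 10 pgWAT libraries (male 2 and 3 and female 1, 2 and 3), Ccl2 in 4 and Cxcl12 in 1, whereas Ccl2 was the highest in all 19 iWAT libraries. Those 4 leading iWAT ligands together held 86.6% of the ligand counts in iWAT and 63.1% in pgWAT. Per kilobase of the longest annotated coding transcript, Ccl2 led in both depots, with a mean of 2610.2 CPM per kb in iWAT and 899.8 in pgWAT. On this scale Ccl7 (889), Ccl11 (593), Ccl8 (343) and Ccl6 (268) followed in iWAT. In pgWAT it was Ccl6 (618), Ccl7 (451), Ccl8 (415) and Ccl11 (157). The transcripts in use were not determined, so a gene expressed from a shorter transcript may stand too low on this scale.

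**Figure D1:**
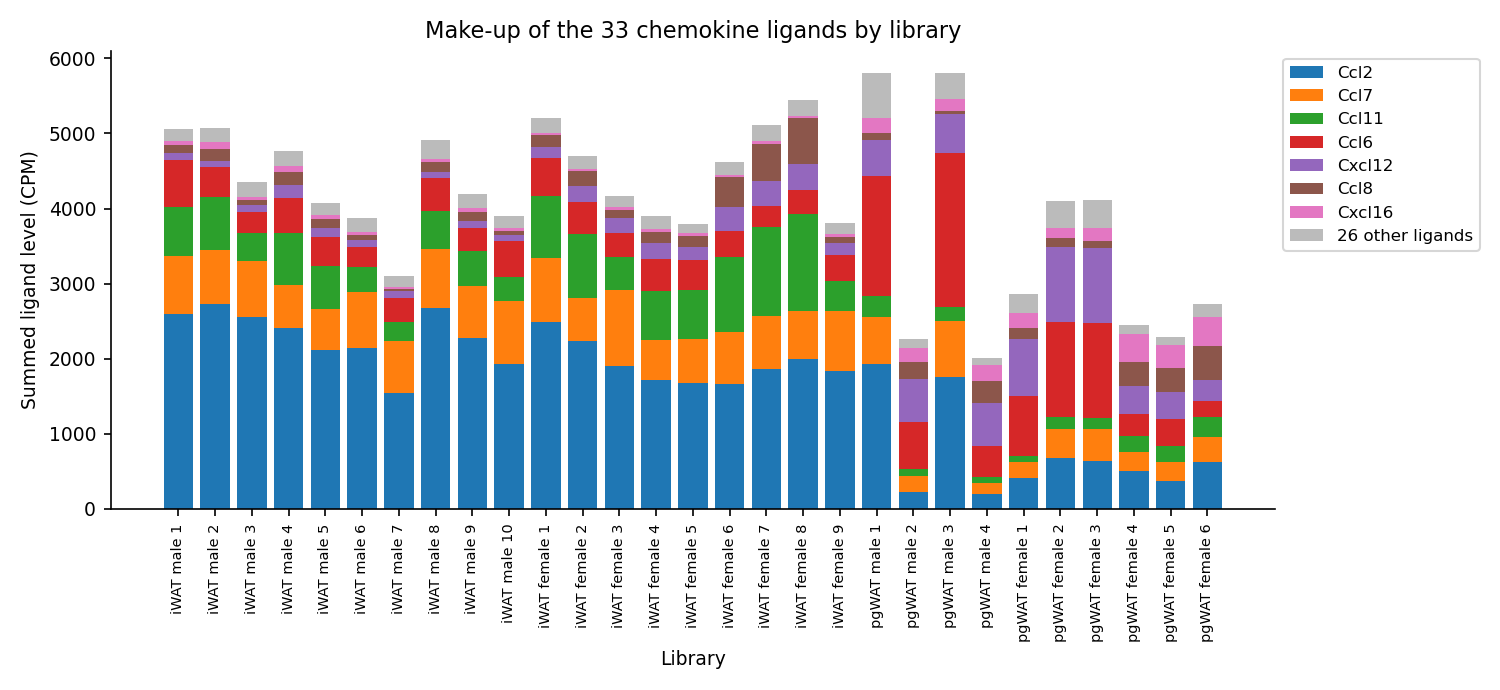
Stacked bars give the level (CPM) of 7 named ligands and of all remaining ligands in each of the 29 libraries, with libraries in order of group on the x axis. The summed ligand level ran from 3099 to 5449 CPM in iWAT and from 2003 to 5812 CPM in pgWAT, where pgWAT male 1 and 3 stand above the other pgWAT libraries and hold more Ccl2 and Ccl6.

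Of the 55 members, 16 passed the filter on low counts and were tested, namely 13 ligands, the receptor Ccr1 and the atypical receptors Ackr3 and Ackr4. Between depots 10 of these 16 were called at an FDR below 0.05 in edgeR, against 38.1% of all 8853 genes tested. In pgWAT, 6 were higher (Ackr4, Cxcl16, Cxcl12, Ackr3, Ccl6 and Ccl9) and 4 were lower (Ccl11, Ccl2, Cx3cl1 and Ccl7), beside 20.1% of all genes called higher and 17.9% called lower. The median log2 fold change of the 16 was 0.53, beside 0.01 over all genes. A member that passed the filter through the group in which it was high had to differ, so these counts describe the tested members only.

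**Figure D2:**
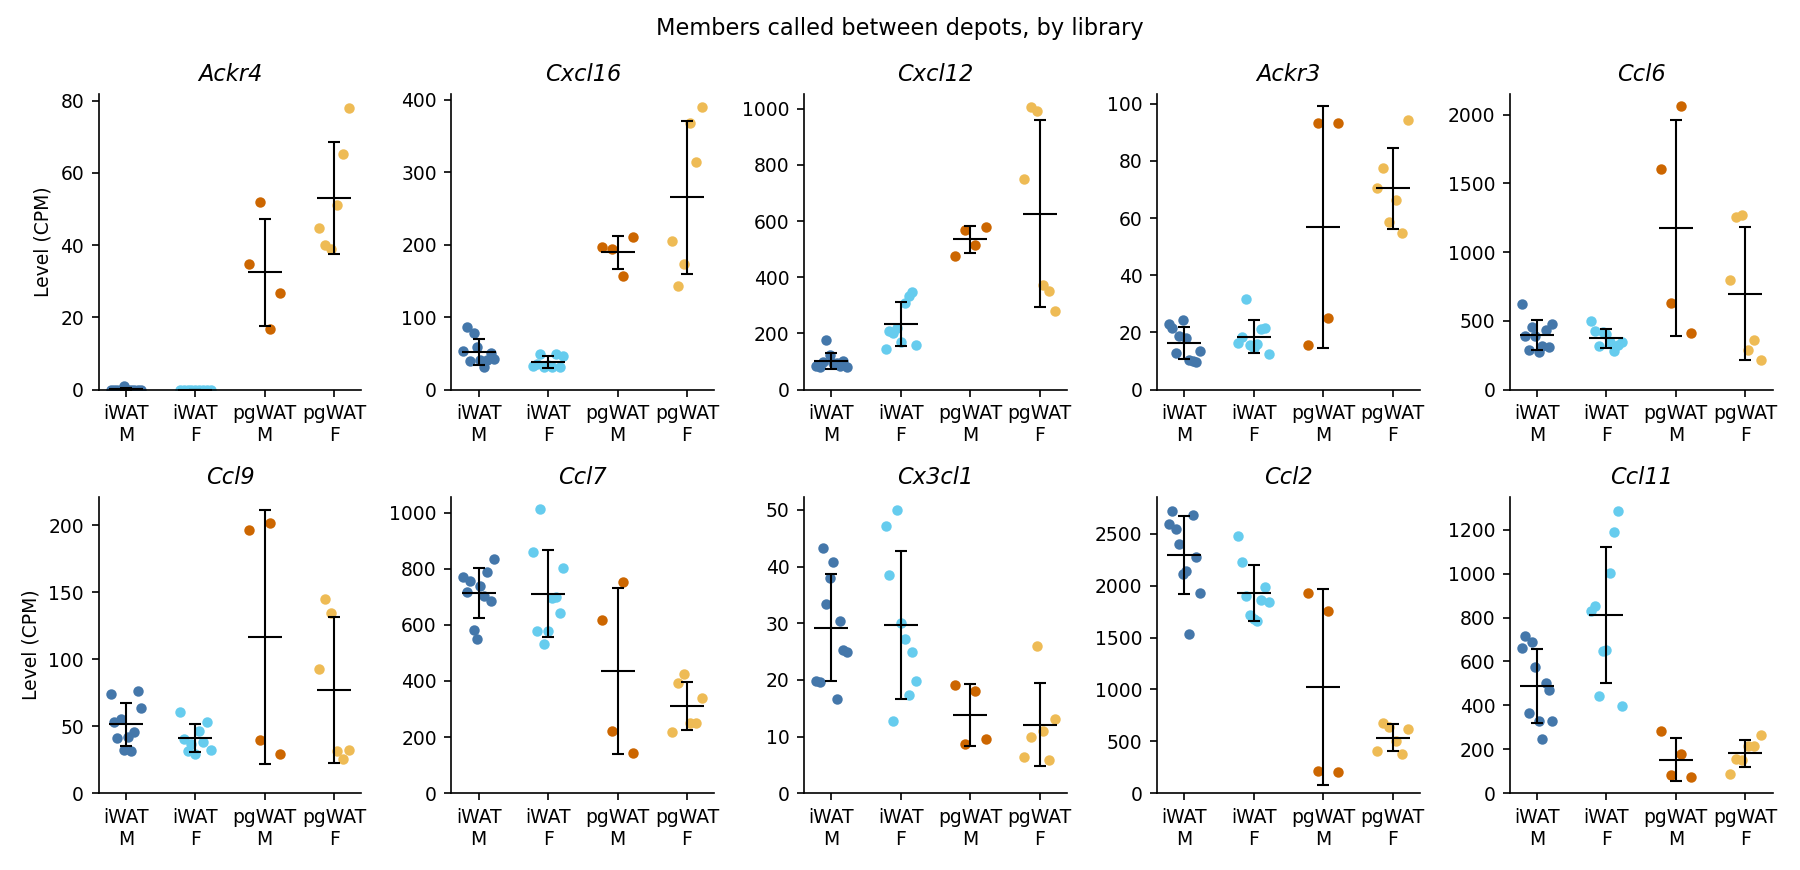
Each panel shows the level (CPM, linear axis from 0) of a member called between depots in every library of the 4 groups (M, labelled male; F, labelled female), with the mean and SD in black. Ackr4 and Cxcl16 separate the depots without overlap, and Ccl2, Ccl6, Ccl9 and Ackr3 split within pgWAT male into pairs of libraries.

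Ccl2 and Ccl7, monocyte attractants that lie side by side on chromosome 11, were lower in pgWAT, as was their neighbour Ccl11. Ccl2 (ENSMUSG00000035385.6) ranged from 1537 to 2723 CPM in iWAT male with a median of 2341, and from 1662 to 2483 CPM in iWAT female with a median of 1863. In pgWAT male the 4 libraries had 1932, 218, 1752 and 201 CPM, and the 6 pgWAT female libraries had 403, 675, 636, 505, 375 and 618 CPM. Thus pgWAT male 1 and 3 lay within the iWAT range and the other 8 pgWAT libraries lay far below it. The log2 fold change between depots was -1.51 (SE 0.24, edgeR FDR = 4.15e-06), and every pgWAT library lay below the iWAT mean.

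Ccl7, another ligand of the monocyte receptor Ccr2, had 712 ± 121 CPM in iWAT (SD, n = 19). The pgWAT male libraries had 616, 223, 753 and 145 CPM and the pgWAT female libraries ran from 218 to 425 CPM with a median of 294. As for Ccl2, pgWAT male 1 and 3 were the highest of the depot. The difference was -0.95 on the log2 scale (SE 0.17, edgeR FDR = 4.75e-05), with 9 of 10 pgWAT libraries below the iWAT mean.

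Ccl11 (eotaxin), the eosinophil-attracting ligand of Ccr3, showed the largest fall. It ranged from 245 to 718 CPM in iWAT male with a median of 484 and from 397 to 1288 CPM in iWAT female with a median of 828. In pgWAT male it had 281, 83.0, 176 and 72.8 CPM, and in pgWAT female 86.4 to 264 CPM with a median of 186. Only pgWAT male 1 and pgWAT female 6 exceeded the lowest iWAT library. Ccl11 fell by 1.92 on the log2 scale (SE 0.23, edgeR FDR = 4.28e-08), with 10 of 10 pgWAT libraries below the iWAT mean.

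Ccl8 and Ccl12, which lie beside Ccl2, Ccl7 and Ccl11 in an unbroken row of chemokine genes on chromosome 11, did not pass the test between depots. Ccl8 had 175 ± 155 CPM in iWAT (SD, n = 19) and 212 ± 132 CPM in pgWAT (SD, n = 10), a log2 fold change of 0.31 (SE 0.32, edgeR FDR = 0.469). Ccl12 had 19.2 ± 11.4 CPM and 26.3 ± 22.3 CPM, a log2 fold change of 0.48 (SE 0.34, edgeR FDR = 0.276). Across the row Ccl2, Ccl7, Ccl11, Ccl12, Ccl8 and Ccl1, therefore, 3 members were called lower, 2 were tested and not called, and Ccl1 had 3 counts in all.

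The neighbouring pair Ccl6 and Ccl9, ligands of Ccr1 that are known from macrophages and other myeloid cells, was higher in pgWAT. Ccl6 had 386 ± 89.9 CPM in iWAT (SD, n = 19), with 396 ± 108 CPM in the male and 375 ± 69.1 CPM in the female libraries. The pgWAT male libraries had 1604, 631, 2060.4 and 413 CPM and the pgWAT female libraries had 800.2, 1257, 1269, 286, 359 and 218 CPM. The values for pgWAT female 4, 5 and 6 were thus below the iWAT mean, while the other 7 were above it. Ccl6 rose by 1.23 on the log2 scale (SE 0.22, edgeR FDR = 4.09e-05). Ccl9 was likewise highest in pgWAT male 1 and 3, with 196, 39.8, 201 and 28.9 CPM in pgWAT male and 92.8, 145, 135, 31.8, 25.2 and 32.5 CPM in pgWAT female, against 46.4 ± 14.3 CPM in iWAT (SD, n = 19). Its difference on the log2 scale was 1.03 (SE 0.27, edgeR FDR = 0.00264), and 5 of the 10 pgWAT libraries exceeded the iWAT mean. With the well column as a term in the fit Ccl9 was no longer called (log2 fold change 0.60, edgeR FDR = 0.0832), and neither was it with limma-voom (0.60, FDR = 0.104).

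Macrophage markers moved with these 2 ligands across the pgWAT libraries. Their summed level was 7694, 1184, 8286 and 1136 CPM in pgWAT male 1 to 4 and 2301, 3496, 3285, 805, 766 and 869 CPM in pgWAT female 1 to 6. Lyz2 alone gave 28282 counts of this list, and Cd163, at 23 counts, the fewest. Ccl3 and Ccl4, inflammatory ligands, and the receptor Ccr1 were also highest in pgWAT male 1 and 3 within that group. Ccl4 had 27.8, 5.19, 20.8 and 3.21 CPM and Ccr1 had 34.7, 8.64, 48.6 and 6.42 CPM in the 4 pgWAT male libraries. Between depots neither was called, with log2 fold changes of 0.37 for Ccl4 (SE 0.37, edgeR FDR = 0.462) and 0.58 for Ccr1 (SE 0.30, edgeR FDR = 0.126). Ccr1 was called without pgWAT male 4, at 0.74 (edgeR FDR = 0.0393). The pgWAT libraries with at least 10 Y-linked counts were male 1 and 3 and female 1, 2 and 3. By well, female 1, 2 and 3 lay in column 10 and male 3 in column 7. Female 4, 5 and 6 and male 1 lay in column 8, and male 2 and 4 in column 9. Apart from male 1, a split by Y-linked counts thus also followed the well columns. Macrophage markers ran from 2301 to 8286 CPM in them and from 766 to 1184 CPM in the other pgWAT libraries. Ccl6 split likewise, at 800.2 to 2060.4 against 218 to 631 CPM, as did Ccl9, at 92.8 to 201 against 25.2 to 39.8 CPM. The part of macrophage content in the depot difference of Ccl6, Ccl9 and Ccr1 was not tested, nor was the cause of this split within pgWAT.

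**Figure D3:**
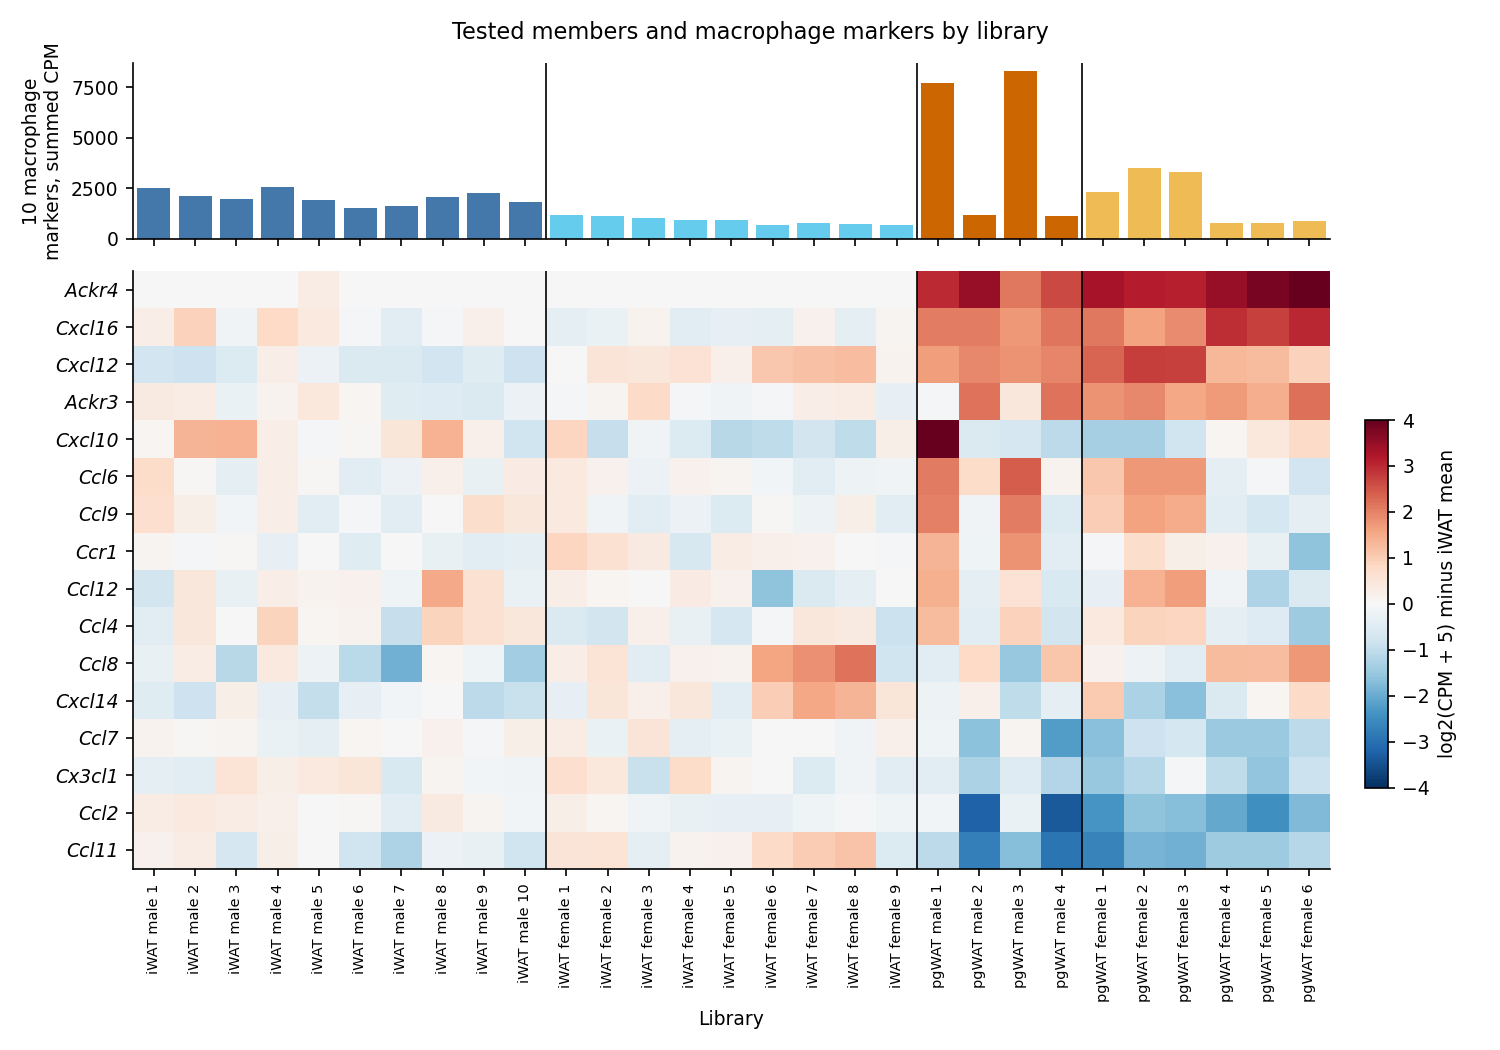
The upper bars give the summed level (CPM) of 10 macrophage markers in each library, and the lower map gives log2(CPM + 5) of each tested member minus its mean over the iWAT libraries (red, higher; blue, lower). Ackr4, Cxcl16 and Cxcl12 are red in all 10 pgWAT libraries, whereas Ccl6, Ccl9 and Ccr1 are reddest in pgWAT male 1 and 3, which have 7694 and 8286 CPM of macrophage markers.

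Among the CXC ligands, Cxcl12, the stromal ligand that retains hematopoietic cells in their niches, was higher in pgWAT. It ranged from 79.0 to 176 CPM in iWAT male with a median of 95.6, and from 144 to 348 CPM in iWAT female with a median of 210.0. The pgWAT male libraries had 477, 567, 515 and 578 CPM and the pgWAT female libraries had 749, 1007, 992, 372, 353 and 279.8 CPM. Of the 10 pgWAT libraries only pgWAT female 6 fell within the range of iWAT female. On the log2 scale it was higher by 1.90 (SE 0.17, edgeR FDR = 9.99e-11), and no pgWAT library lay below the iWAT mean of 164 CPM.

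Cxcl16, a membrane-bound ligand of Cxcr6 and a scavenger receptor, ranged from 31 to 86.1 CPM over all iWAT libraries with a median of 40.8. The pgWAT male libraries had 196, 194, 157 and 211 CPM and the pgWAT female libraries ran from 142 to 390.4 CPM with a median of 259.5. The depots did not overlap for Cxcl16, as for 2.13% of all genes tested. They did not overlap for Ackr4 either, but that gene passed the filter through pgWAT alone. Cxcl16 rose by 2.34 on the log2 scale (SE 0.15, edgeR FDR = 1.56e-14). This difference stayed between 2.27 and 2.41 when each library was left out in turn, and was 2.48 without the 5 pgWAT libraries that miss their sex label.

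Cx3cl1 (fractalkine), the other membrane-anchored ligand, moved in the opposite direction. It had 29.5 ± 11 CPM in iWAT (SD, n = 19) and 12.8 ± 6.40 CPM in pgWAT (SD, n = 10), and 10 of 10 pgWAT libraries lay below the iWAT mean. The log2 fold change was -1.22 (SE 0.24, edgeR FDR = 0.00015). Its level rested on 389 counts in iWAT and 72 counts in pgWAT.

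Cxcl14, a ligand abundant in fibroblasts and epithelia, and Cxcl10, an interferon-induced attractant of T cells, did not pass the test between depots. Cxcl14 had 29.4 ± 20.3 CPM in iWAT (SD, n = 19) and 23.5 ± 17 CPM in pgWAT (SD, n = 10), with a log2 fold change of -0.34 (SE 0.30, edgeR FDR = 0.389). Cxcl10 had a log2 fold change of 1.27 (SE 0.64, edgeR FDR = 0.12) that rested on pgWAT male 1, in which it reached 210.0 CPM from 121 counts. The other 9 pgWAT libraries had 0 to 16.3 CPM, and without pgWAT male 1 it turned to -0.96 (edgeR FDR = 0.194).

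The atypical receptors gave the largest depot difference of the family. Ackr4, which takes up the lymphoid ligands Ccl19, Ccl21 and Ccl25, had 1 count in the 19 iWAT libraries together and 240 counts in the 10 pgWAT libraries. Per library, pgWAT male had 34.7, 51.9, 16.7 and 26.8 CPM and pgWAT female had 44.8, 40.0, 39.1, 51.2, 65.2 and 78.1 CPM, while 18 iWAT libraries had 0. Every pgWAT library thus exceeded every iWAT library. The ratio of pooled levels was 533 with a 95% counting interval (Clopper-Pearson) of 94.7 to 21122. Ackr4 passed the filter on low counts through pgWAT alone, so a call between depots had to follow. Its edgeR FDR of 9.24e-15 is therefore given as description only. Mesothelial markers separated the same depots, and the part of mesothelial cells in the Ackr4 difference was not tested.

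Ackr3, the atypical receptor that scavenges Cxcl12, ranged from 9.50 to 31.6 CPM in iWAT with a median of 16.2. In pgWAT male it had 15.6, 93.3, 25 and 93.2 CPM and in pgWAT female 54.8 to 94.3 CPM with a median of 68.4. Thus pgWAT male 1 and 3, the libraries with the highest macrophage marker levels, stayed within the iWAT range and the other 8 lay above it. The log2 fold change was 1.83 (SE 0.21, edgeR FDR = 1.00e-08), and 1.08 (SE 0.22, edgeR FDR = 0.000395) without the 5 pgWAT libraries that miss their sex label. Ackr2, which degrades inflammatory CC chemokines, had 17 counts in 7 iWAT libraries and 0 in pgWAT, and the 95% counting interval of the pooled iWAT level over the pgWAT level began at 1.86. Neither Ackr2 nor Ackr1 (21 counts) nor Ccrl2 (33 counts) passed the filter.

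The 36 members that were detected but not tested were sparse. Among the most abundant were Ccl3 (149 counts), Ccl25 (142), Cxcl5 (134), Ccl5 (89), Cxcl1 (73) and Cxcr4 (36), followed by Cxcl9 (35), Ccl22 (32), Cxcl2 (18), Ccr7 (16), Cxcl3 (13), Ccl17 (12), Ccl28 (11), Ccr3 (11) and Ccl19 (10). Cxcr3 (9), Ccl24 (7), Cxcr6 (7), Cxcr2 (6), Ccr8 (4), Ccr10 (4), Ccl1 (3), Ccr6 (3) and Cxcr5 (3) had fewer than 10 counts, as did Cxcl13, Cxcl15, Cxcl17 and Xcl1 with 2 counts each and Ccr2, Ccr9, Cxcr1 and Cx3cr1 with 1 count each. Cxcl5, a neutrophil attractant, was concentrated in pgWAT female 1, 2 and 3, at 32.0, 60.0 and 43.4 CPM. The other pgWAT libraries had at most 8.33 CPM and iWAT at most 14.7 CPM. Female 1, 2 and 3 were the only pgWAT libraries in column 10. Ccl22, a ligand of Ccr4 made by dendritic cells and macrophages, had 24 counts in pgWAT and 8 in iWAT, a ratio of 6.66 (95% counting interval 2.89 to 17.1). Cxcr4 had 24 and 12 counts (ratio 4.44, 2.13 to 9.74). These intervals cover counting error over pooled wells and say nothing of the spread between wells.

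For most abundant ligands the signaling receptor was at or near 0 in the same cultures. Ccl2 and Ccl7 gave 30403 and 10757 counts while Ccr2 gave 1. Ccl11 gave 9622 counts and Ccr3 gave 11, Cxcl16 gave 1890 and Cxcr6 gave 7, and Cx3cl1 gave 461 and Cx3cr1 gave 1. Ccr1, the receptor of Ccl6, Ccl7 and Ccl9, was the only signaling receptor that passed the filter, with 237 counts in 28 of 29 libraries. Cxcl12 gave 5442 counts, and of its receptors Cxcr4 gave 36 counts in 17 libraries and the scavenging receptor Ackr3 gave 587 counts in 29. Ackr4 gave 241 counts, and of its ligands Ccl19 gave 10 and Ccl25 gave 142, of which 101 were in iWAT and 41 in pgWAT. The Ccl21 genes are not members.

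Within the labelled sexes the depot difference was examined again. In labelled male libraries 11 of 16 members were called, against 20.3% of all genes, and in labelled female libraries 9 of 16, against 26.8%. The same direction was seen in both for all 10 members called over both sexes. Beside Ackr4 at 6.45 (SE 0.51) and 8.07 (SE 0.49), Cxcl12 had a log2 fold change of 2.38 (SE 0.26) in labelled male and 1.42 (SE 0.23) in labelled female libraries. Cxcl16 had 1.85 (SE 0.22) and 2.84 (SE 0.20), Ackr3 had 1.75 (SE 0.30) and 1.91 (SE 0.28), and Ccl6 had 1.57 (SE 0.33) and 0.89 (SE 0.31). Among the lower members Ccl11 had -1.68 (SE 0.35) and -2.15 (SE 0.30), Ccl2 had -1.16 (SE 0.35) and -1.85 (SE 0.31), Cx3cl1 had -1.11 (SE 0.35) and -1.33 (SE 0.34), and Ccl7 had -0.71 (SE 0.26) and -1.18 (SE 0.23). Ccr1 was called in labelled male libraries (log2 fold change 1.46, SE 0.41, edgeR FDR = 0.0103) and had -0.30 (SE 0.42, edgeR FDR = 0.647) in labelled female libraries. Ccl9 was called in labelled male libraries (1.19, SE 0.38, edgeR FDR = 0.0234) and not in labelled female libraries (0.86, SE 0.37, edgeR FDR = 0.0893). Single libraries decided some of these calls. In labelled male libraries Ccl2, Ccl7 and Cx3cl1 lost theirs without pgWAT male 2 or 4 (-0.83 and -0.84 for Ccl2), Ccl9 lost it without pgWAT male 1 or 3 (0.82 and 0.76) and Ccr1 without pgWAT male 3 (0.85), and Ccl7 also without iWAT male 1, 3, 8, 9 or 10. In labelled female libraries Ccl6 lost its call without pgWAT female 1, 2 or 3 (0.86, 0.64 and 0.63), and Ccl9 gained one without pgWAT female 4 or 5 (1.04 and 1.07).

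**Figure D4:**
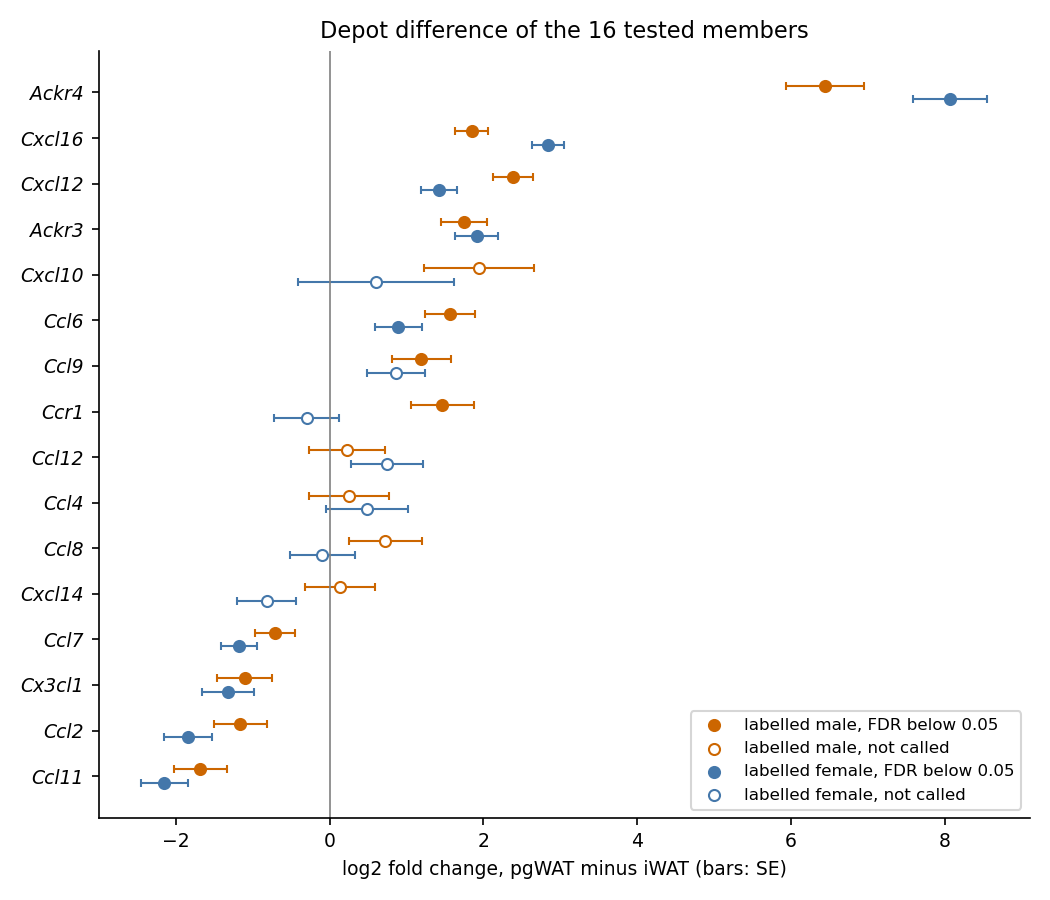
Points give the log2 fold change (pgWAT minus iWAT) of each tested member in labelled male and labelled female libraries, bars give the SE, and filled points were called at an FDR below 0.05. Ackr4 stands at 6.45 and 8.07, Cxcl16, Cxcl12 and Ackr3 follow on the right, and Ccl11 and Ccl2 lie furthest left.

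The wells lay in columns 7 to 10 of the plate, so the depots were also compared within a column. In column 9, with 2 pgWAT male and 3 iWAT male libraries, 10 of 14 tested members were called (23.2% of all genes). There Ccl2 had a log2 fold change of -3.32 (SE 0.21, edgeR FDR = 1.04e-08), Ccl8 had 2.35 (SE 0.24, edgeR FDR = 1.71e-06) and Ccl9 had -0.20 (SE 0.30, edgeR FDR = 0.688). Both pgWAT libraries in this column, pgWAT male 2 and 4, miss their sex label. In column 8, with 3 pgWAT female and 3 iWAT female libraries, 9 of 18 were called (14.0% of all genes). Cxcl12 had 0.03 there (SE 0.14, edgeR FDR = 0.928), whereas Cxcl16 had 3.23 (SE 0.19, edgeR FDR = 1.15e-10) and Ackr4 had 8.44. With the well column as a term in the fit over all libraries 9 of 16 members were called between depots (30.6% of all genes), all but Ccl9 of those called without it. In that fit Cxcl12 lost its call in labelled female libraries (0.71, SE 0.26, edgeR FDR = 0.0564), as did Ccl6 (0.27, FDR = 0.606) and Cx3cl1 (-0.96, FDR = 0.103). Cx3cl1 lost it in labelled male libraries too (-0.94, FDR = 0.0576).

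Without the 5 pgWAT libraries that miss their sex label, 11 of 17 tested members were called between depots (23.7% of all genes), 7 higher and 4 lower. Cxcl10 was the addition, at 2.14 (SE 0.58, edgeR FDR = 0.00666), with 210.0 CPM in pgWAT male 1 and 2.78 to 16.3 CPM in the other 4 pgWAT libraries. By label, 8 of 17 were then called in male libraries (9.16% of all genes), 8 higher and 0 lower, and 7 of 17 in female libraries (18.3% of all genes), 3 higher and 4 lower. Several members gave different pictures in these subsets. Ccl2 had -0.34 (SE 0.18, edgeR FDR = 0.279) in the 2 remaining pgWAT male libraries against iWAT male and -1.96 (SE 0.17, edgeR FDR = 4.53e-10) in the 3 remaining pgWAT female libraries against iWAT female. The call of Ccl7 was lost in male libraries (-0.08, SE 0.19, edgeR FDR = 0.859), as were those of Cx3cl1 (-0.71, SE 0.42, FDR = 0.342) and Ccl11 (-1.12, SE 0.38, FDR = 0.0578). Cxcl12 lost its call in female libraries (0.52, SE 0.22, edgeR FDR = 0.108). Ccl6 had 2.18 and, not called, -0.37 (edgeR FDR = 0.238), and Ackr3 had, not called, 0.25 (FDR = 0.742) and 1.92, in the order male and female. Cxcl16 (1.71 and 3.25) and Ackr4 (6.11 and 8.39) were called higher in pgWAT in each.

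All 19 iWAT libraries matched their sex label. Between the sexes in iWAT, 3 of 16 members were called, beside 3.22% of all genes. All 3 were lower in male libraries, beside 2.13% of all genes called lower and 1.08% called higher. Cxcl12 had 101 ± 29.1 CPM in iWAT male as mean ± SD of 10 libraries, and 233 ± 77.5 CPM in the 9 female libraries, a log2 fold change of -1.19 (SE 0.22, edgeR FDR = 0.00127), with 10 of 10 male libraries below the female mean. Cxcl14 had 17.6 ± 7.04 CPM and 42.5 ± 22.3 CPM (-1.29, SE 0.33, edgeR FDR = 0.0206). Ccl8 had 101 ± 49.9 CPM and 258 ± 192 CPM (-1.36, SE 0.38, edgeR FDR = 0.0381). Ccl11 had 488 ± 169 CPM and 811 ± 311 CPM, a difference of -0.73 that was not called (SE 0.24, edgeR FDR = 0.0838) and that was called without iWAT female 9, at -0.82 (edgeR FDR = 0.0476). Without iWAT female 7 or iWAT female 8, only 1 member was called, namely Cxcl12, and Ccl8 also lost its call without iWAT female 6 or without iWAT male 1, 3, 5, 6, 7 or 10.

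These differences moved with the position of the wells. In iWAT female 6, 7 and 8, the only iWAT libraries in column 8, Cxcl12 had 309.7, 333 and 348 CPM against at most 219 in the other iWAT female libraries. Ccl8 had 403, 488 and 608 CPM there and at most 194 CPM in the others, and Cxcl14 had 54.5, 81.8 and 71.2 CPM against at most 37.1 CPM. Within column 7, which held 7 iWAT male and 4 iWAT female libraries, 2 of 17 members were called (2.66% of all genes), namely Cxcl12, lower in male libraries (-0.83, SE 0.20, edgeR FDR = 0.0276), and Cxcl16, higher in male libraries (0.83, SE 0.21, edgeR FDR = 0.0387). In that column Cxcl14 had -0.87 (SE 0.32, edgeR FDR = 0.155) and Ccl8 had -0.41 (SE 0.21, edgeR FDR = 0.354). With the well column as a term over all libraries 3 of 16 members were called, beside 496 of 8853 genes (255 higher and 241 lower in male libraries). Cxcl12 was lower (-0.91, SE 0.21, edgeR FDR = 0.00876), Ccl4 (1.68, SE 0.41, edgeR FDR = 0.0126) and Cxcl10 (2.74, SE 0.83, edgeR FDR = 0.0446) were higher in male libraries, and Ccl8 (-0.77, FDR = 0.229) and Cxcl14 (-0.90, FDR = 0.102) were not called. Macrophage markers in iWAT ran from 1503 to 2555 CPM in male and from 661 to 1160 CPM in female libraries, and Ccl6 had a log2 fold change between the sexes of 0.08 (SE 0.27, edgeR FDR = 0.935). Of the 4 epithelial markers, summed, iWAT male had at most 56.3 CPM and iWAT female had 40.7 to 1453 CPM, and the part of macrophage and epithelial cells in these differences was not tested. With the 5 pgWAT libraries left out of the fit, 4 of 17 members were called between the sexes in iWAT (5.84% of all genes), with Ccl11 added.

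**Figure D5:**
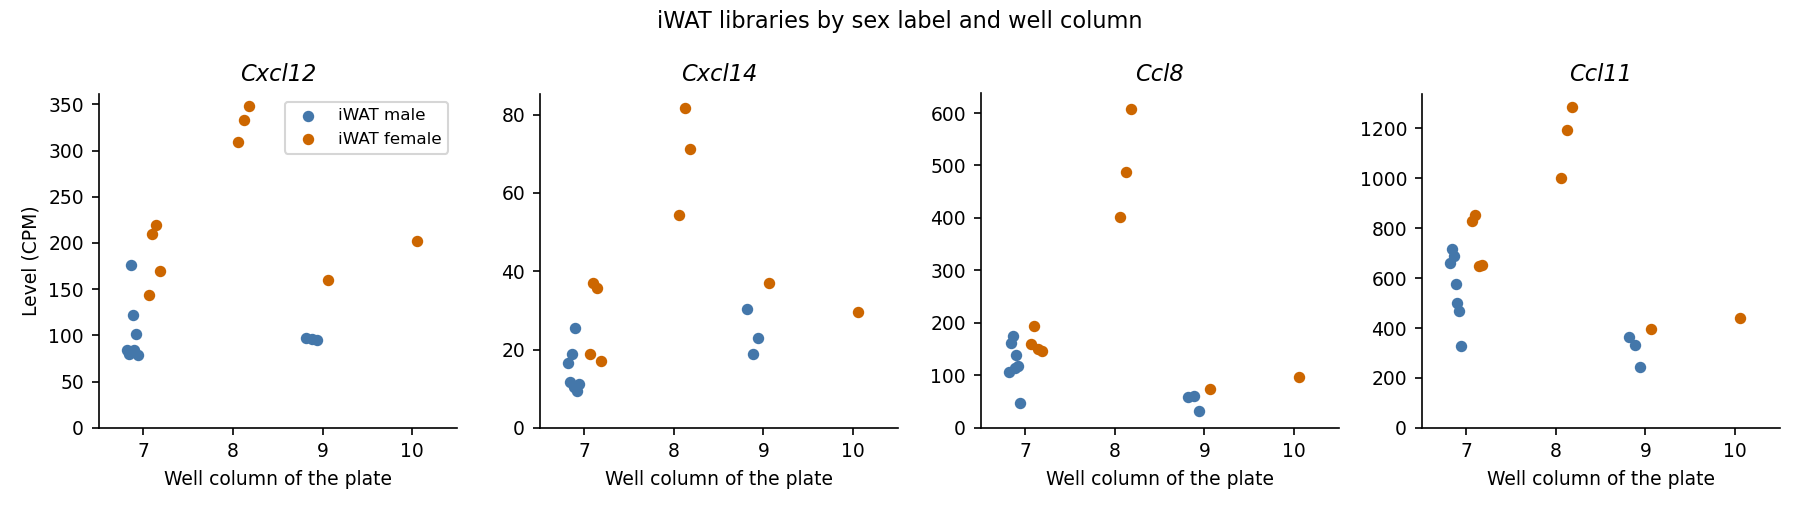
Points give the level (CPM, linear axis from 0) of Cxcl12, Cxcl14, Ccl8 and Ccl11 in each iWAT library by the column of its well, with male and female libraries in different colours. The 3 female libraries in column 8 are the highest for each gene, and Cxcl12 is higher in the 4 female libraries of column 7 than in most male libraries of that column.

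Between the sexes in pgWAT as labelled, 0 of 16 members were called in edgeR, beside 0.0113% of all genes, and 6 had an unadjusted p below 0.05. DESeq2 and limma-voom called 0 members as well. The largest difference was in Cxcl10, at 2.92 on the log2 scale (SE 0.91, edgeR FDR = 0.317), and it rested on pgWAT male 1. With the well column as a term over all libraries the members called included Ccl6 (1.59, edgeR FDR = 0.0207), beside 58 of 8853 genes. Without the 5 libraries that miss their label, pgWAT male 1 and 3 against pgWAT female 4, 5 and 6, 11 of 17 members were called (5.63% of all genes), of which 8 were higher in male and 3 lower. Ccl9 (2.71, SE 0.31, edgeR FDR = 2.18e-07), Ccl6 (2.62, SE 0.28, edgeR FDR = 4.05e-08), Ccl4, Ccl3 and Ccr1 were among those higher, together with Ccl2 (1.87), and Ccl8 (-2.42), Ackr3 (-1.78) and Cxcl16 (-1.04) were lower. The 3 female libraries of this comparison lay in column 8 and the male libraries in columns 8 and 7, macrophage markers were at 7694 and 8286 CPM against 766 to 869 CPM, and their part in these differences was not tested.

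For the depot by sex interaction 0 of 16 members were called in edgeR (0.181% of all genes), 3 had an unadjusted p below 0.05, and DESeq2 and limma-voom called 0. Cxcl16 had the smallest adjusted p (-0.99, SE 0.31, edgeR FDR = 0.272), and the largest difference was in Ccr1 (1.76, SE 0.59, edgeR FDR = 0.333). Without the 5 libraries 8 of 17 members were called (2.56% of all genes), 6 positive and 2 negative, with Ccl6 at 2.56 (SE 0.31, edgeR FDR = 1.6e-06), Ccl2 at 1.62 (SE 0.23, edgeR FDR = 2.54e-05) and Ackr3 at -1.67 (SE 0.43, edgeR FDR = 0.0249). With the well column as a term over all libraries Cxcl12 was called (1.60, edgeR FDR = 0.031), beside 18 of 8853 genes. As labelled, therefore, no member was called for the interaction in the main fit, and the reduced comparison rests on 2 pgWAT male libraries.

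Promoters of the members were searched for short motifs, as a description only. RefSeq promoters on GRCm38.p6 were at hand for 41 of the 55 members and 11 of the 16 tested. Ccl2, Ccl4, Ccl7, Ccl11 and Cxcl16 were the tested members without one. The 250 bases before the start were searched on both strands for the kappaB motif of NF-kB, the interferon-stimulated response element (ISRE), the AP-1 motif TGANTCA, the STAT motif TTCNNNGAA and the TATA motif TATAAA. A kappaB match was found in 12 of 41 members (29.3%) and in 8.23% of 27025 genes, and TATAAA in 12 of 41 (29.3%) and in 14.3%. Most of the members with a kappaB match were not tested. Among the 11 tested members 3 had a kappaB match, namely Ccl9, Ccr1 and Cxcl10, and 6 had TATAAA. The ISRE was found in 3 of 41 members (7.32%, against 3.46% of genes), TGANTCA in 4 (9.76%, against 7.82%) and TTCNNNGAA in 3 (7.32%, against 8.13%). Some kappaB matches on the opposite strands overlap, and a match is a description of letters, not of binding. The upstream stretches of 2 members above the iWAT mean in all 10 pgWAT libraries, of Ccl9 and of Cxcl10 follow. They run 5′ to 3′ toward the start, with matches to any of the 5 motifs in capitals.
Ackr4 (chr9:104126644-104126893, minus strand): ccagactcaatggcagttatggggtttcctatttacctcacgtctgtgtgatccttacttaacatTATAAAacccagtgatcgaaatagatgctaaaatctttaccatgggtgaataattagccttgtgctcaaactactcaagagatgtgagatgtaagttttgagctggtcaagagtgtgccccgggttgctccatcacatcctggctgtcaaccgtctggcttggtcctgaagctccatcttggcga
Cxcl12 (chr6:117168285-117168534, plus strand): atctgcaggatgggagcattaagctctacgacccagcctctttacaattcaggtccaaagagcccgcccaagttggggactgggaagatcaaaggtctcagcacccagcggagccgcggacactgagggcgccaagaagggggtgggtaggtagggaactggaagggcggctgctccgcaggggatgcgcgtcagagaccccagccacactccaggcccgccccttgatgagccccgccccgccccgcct
Ccl9 (chr11:83578637-83578886, minus strand): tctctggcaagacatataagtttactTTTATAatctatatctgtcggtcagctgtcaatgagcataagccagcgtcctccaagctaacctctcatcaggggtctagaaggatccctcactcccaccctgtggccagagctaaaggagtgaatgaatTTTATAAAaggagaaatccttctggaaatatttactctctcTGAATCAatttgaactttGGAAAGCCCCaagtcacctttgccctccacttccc
Cxcl10 (chr5:92348890-92349139, minus strand): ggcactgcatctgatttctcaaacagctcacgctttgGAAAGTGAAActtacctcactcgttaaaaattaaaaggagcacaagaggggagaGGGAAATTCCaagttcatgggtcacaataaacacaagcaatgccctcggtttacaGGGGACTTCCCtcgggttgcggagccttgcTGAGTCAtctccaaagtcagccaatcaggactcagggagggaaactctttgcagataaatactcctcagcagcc
Ackr4 held a TATAAA match that began 185 bases before the start, Cxcl12 held no match, Ccl9 held kappaB, AP-1 and TATAAA matches, and Cxcl10 held kappaB, ISRE and AP-1 matches. Ccl6, the neighbour of Ccl9, held none.

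The genes that induce, present or read chemokines were followed as 5 lists with 60 genes, of which 49 were tested. Between depots 14 of the 49 were higher and 7 lower in pgWAT, beside 20.1% and 17.9% of all genes. Without the 5 pgWAT libraries that miss their sex label 8 of 50 were higher and 3 lower, beside 1159 and 1092 of 9516 genes. Among NF-kB and its inducing receptors 5 of 16 were higher, including the interleukin-17 receptor Il17ra (0.71, SE 0.18), the TNF receptor Tnfrsf1b (0.68, SE 0.17) and Rela (0.43, SE 0.12), and the interleukin-1 receptor Il1r1 was lower (-0.80, SE 0.15, edgeR FDR = 4.37e-05). The list had a median log2 fold change of 0.19. Among 9 genes of interferon input the receptor chain Ifnar2 was higher (1.17, SE 0.19, edgeR FDR = 1.06e-05) and the interferon-gamma receptor genes Ifngr1 (-0.69, SE 0.15) and Ifngr2 (-0.45, SE 0.18) were lower, with a list median of -0.19.

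Among 10 genes of chemokine processing and presentation, 4 were higher and 1 was lower. Dpp4, the peptidase that trims and inactivates Cxcl12 and other chemokines, rose by 2.74 on the log2 scale (SE 0.26, edgeR FDR = 2.56e-10). The study uses Dpp4 as a marker of ASC2, its less committed adipose stem cells, and reports it higher in cultured pgWAT SVF. The part of such cells in this rise was not tested. The heparan sulfate carriers Sdc4 (1.76, SE 0.14, edgeR FDR = 6.42e-12) and Sdc2 (1.12, SE 0.12, edgeR FDR = 2.31e-09) and the sheddase Adam10 (0.59, SE 0.14, edgeR FDR = 0.000893), which releases Cxcl16 and Cx3cl1, were also higher, and Mmp2 was lower (-0.50, SE 0.16, edgeR FDR = 0.0138). Among 10 tested genes of receptor signaling, Rac2 (1.35) and Arrb2 (0.76) were higher and Gng2 (-0.94) and Grk6 (-0.78) were lower. Of 4 tested stromal cytokines Lif (1.51) and Mif (0.63) were higher and Il11 (-0.96) was lower. Between the sexes in iWAT 0 of the 49 were higher and 3 were lower in male libraries, namely Nfkbiz (-1.11), Hspg2 (-0.70) and Sdc1 (-0.58), beside 1.08% of all genes higher and 2.13% lower. Without those 5 libraries in the fit 2 of 50 were higher and 3 lower, beside 228 and 328 of 9516 genes.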

How the data were processed

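RNA of cultured SVF was sequenced as Smart-seq3 libraries, 1 library per well. The authors trimmed reads with NGmerge 0.3, pooled reads with and without molecular identifiers, quantified them with Salmon 1.9.0 on Gencode vM32 (GRCm39), removed libraries with few genes and deposited a table of estimated counts per gene, of which 85.1% of the nonzero values were whole numbers. These expected counts were rounded to whole counts here. Symbols came from Gencode vM21 (GRCm38) and matched 52029 of 56953 rows (91.4%), and unmatched rows held 0.439% of all counts. Total counts ran from 315316 to 1102234 per library, and 3 counts correspond to 2.58 to 9.76 CPM.

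Genes were filtered with filterByExpr on the 4 labelled groups, scaled by TMM (factors 0.949 to 1.06) and tested with the quasi-likelihood test of edgeR 4.0.16 (R 4.3.3) at a Benjamini-Hochberg FDR below 0.05 over all genes tested. The depot contrast averages over the labelled sexes. Alternatives used DESeq2 1.42.0, limma 3.58.1 (voom), other scalings, no filter, the well column as a term, single columns, the libraries that match their sex label, and each library left out in turn. The study's methods used DESeq2. The script was tested on simulated data with known changes. CPM values divide counts by the TMM-scaled library total, and the SE of a fold change is its size divided by the square root of the F statistic. Members that passed the filter are described with their values, and other members are given by name with their summed counts. Members called in a contrast, and the member with the largest change in each, have their fold change. Of the lists of related genes called members are named, at most 6 per list. The members and lists were chosen with earlier results of these data known. Coding stretches and 31-base words came from Gencode vM21 transcripts, promoters from RefSeq (GRCm38.p6). Cxcl11 was left out because it is not annotated as protein-coding there. The values of 1 member are not reported here.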

Additional observations from a re-analysis of the deposited data

Results flagged for a closer look

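In 63 sets of values, each a member in a group, the highest and lowest library were compared with the rest by Dixon's test, and 6 sets had a library that stood apart, where chance gives about 1 in 20. In 1 of the 6, Ackr4 in iWAT male, a single count among libraries at 0 stands apart whatever its level, so that set is not read against chance. Cxcl10 reached 210.0 CPM (121 counts) in pgWAT male 1, against 1.07 to 3.46 CPM in the other 3 pgWAT male libraries. Cxcl12 had 176 CPM in iWAT male 4, against 79.0 to 122 CPM in the others, and Ccl12 had 58.4 CPM (23 counts) in iWAT male 8, against 8.23 to 28.5 CPM. Ackr3 had 31.6 CPM (15 counts) in iWAT female 3, against 12.3 to 21.5 CPM, and Cx3cl1 had 26.04 CPM (12 counts) in pgWAT female 3, against 5.93 to 13.01 CPM. The single count of Ackr4 in iWAT, 1.15 CPM in iWAT male 5, is set apart from 9 libraries at 0.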

How the results depend on the processing

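No paired analysis was possible because the labels carry no replicate number that links libraries across groups. Single members were followed under alternatives for all 16 tested between depots. In the other contrasts only members with an unadjusted p below 0.05 in the main edgeR fit were followed. Of these values, 1848 kept direction and call, 50 lost and 35 gained a call, and 14 turned direction, and the cause was not tested. Calls gained and turns of other members, such as the call of Ccl8 within column 9, are not in these counts. Of the counts of calls, 280 stayed within 1.5 times and 15 moved. Without a filter on low counts 17 of 52 members were called between depots (3685 of 26512 genes), 5 between the sexes in iWAT (509 genes) and 2 in pgWAT (59 genes). With limma-voom 1 member and 1 related gene were called between the sexes in iWAT (237 of 8853 genes). With the well column as a term 2 members, Ccl6 among them, were called between the sexes in pgWAT (58 of 8853 genes). For the interaction 1 was called, namely Cxcl12 (18 of 8853 genes). Without the 5 pgWAT libraries that miss their sex label 11 members were called between the sexes in pgWAT (5.63% of all genes). For the interaction 8 were called (2.56% of all genes). Of the related genes 11 were then called between depots (23.7% of all genes) and 5 between the sexes in iWAT (5.84%). Between the sexes in column 7, 0 of the related genes were called (2.66% of all genes), with 7 at an unadjusted p below 0.05. Leaving out 1 library gave 1 to 4 members called between the sexes in iWAT. At least 3 counts in a library detected 34 members.

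Between depots Ccl8 turned to -0.051 without the 5 libraries, Ccl4 to -0.31 and Cxcl10 to -0.078 with the well column, and Cxcl10 to -0.0047 with limma-voom. In labelled male libraries Ccl9 turned to -0.20 and Cxcl10 to -2.80 within column 9, and Cxcl10 to -0.85 with limma-voom. In labelled female libraries Ccl6 turned to -0.37 and Ccl9 to -0.49 without the 5 libraries, and to -0.13 and -0.66 within column 8. With 1 library left out Cxcl10 ran from -0.96 to 1.59 between depots, from -2.48 to 2.37 in labelled male libraries and from -1.48 to 3.34 between the sexes in pgWAT. Among calls between the sexes in iWAT over all genes, 33.7% were higher in male, and 51.4% with the well column as a term. The filter on low counts left 39 members untested.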
